A study of Mus musculus with 4 samples.

Results

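The cells described here are macrophages from the proximal mouse testis, the region that holds the rete testis (RT) and the adjacent seminiferous tubules, at postnatal day 14 (P14). They were selected on their own transcripts from single-cell RNA sequencing (scRNA-seq) of 2 control and 2 *Sox17*-cKO libraries. A cell was retained when 1000 to 4500 genes were detected, and a retained cell was taken as a macrophage when at least 3 of the genes *C1qa*, *C1qb*, *C1qc*, *Csf1r*, *Tyrobp* and *Fcer1g* were detected with at least 6 unique molecular identifiers (UMIs) together. Of 46001 barcodes in the 4 cell matrices, 22567 were retained, and 231 of these (1.02%) met the marker limits. Control 1 contributed 25 macrophages, control 2 contributed 81, *Sox17*-cKO 1 contributed 48 and *Sox17*-cKO 2 contributed 77.

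All mice were C57BL/6, and each library pooled the testes of 3 pups. The *Sox17*-cKO pups carried *SF1Cre* with homozygous *Sox17flox* alleles. For the controls the sample labels give *SF1Cre* alone, whereas the study's methods describe *Sox17*flox/flox littermates, so whether the controls carried the Cre transgene cannot be told from the sources used here. *SF1Cre* is driven by the promoter of *Nr5a1* and acts in the somatic lineage of the gonad, from which macrophages do not arise. *Sox17* stood at 3.15 and 6.69 counts per 1000000 UMIs (CPM) in the other retained cells of the controls and at 0.690 and 1.17 CPM in those of the *Sox17*-cKO libraries. The macrophages held 1 *Sox17* UMI in all, in control 2.

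Macrophages of the testis lie in the interstitium beside Leydig cells and vessels and along the outer wall of the tubules. Signals through the receptor encoded by *Csf1r* keep them alive, and they take up debris and dying cells, store and export iron and sterols, and secrete chemokines. C1q, built from the products of *C1qa*, *C1qb* and *C1qc*, is the recognition unit of the classical complement pathway, and tissue macrophages are its main source. Class II MHC molecules present peptides to T cells, and macrophages of the mouse testis are commonly divided by how much class II MHC and how much of the mannose receptor MRC1 they carry.

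Of the 6 marker genes, *C1qb*, *C1qc* and *Fcer1g* had an upstream sequence in the RefSeq table for GRCm38.p6. The 250 bases before each start are shown because these genes chose the cells, and *C1qa*, *C1qb* and *C1qc* lie side by side on the minus strand of chromosome 4. *C1qa* spans 136895917 to 136898803, *C1qc* spans 136889804 to 136893065 and *C1qb* spans 136880129 to 136886187. The window of *C1qb* is chr4:136886201-136886450, that of *C1qc* is chr4:136892915-136893164 and that of *Fcer1g* is chr1:171234350-171234599, all on the minus strand. The spans are GENCODE vM21 gene bounds, whereas the windows follow the RefSeq start, which lies inside the GENCODE span for *C1qc* and *Fcer1g*, so these windows overlap the gene. Capitals mark GAGGAA, the core letters bound by the macrophage factor PU.1, or its reverse complement TTCCTC.
C1qb: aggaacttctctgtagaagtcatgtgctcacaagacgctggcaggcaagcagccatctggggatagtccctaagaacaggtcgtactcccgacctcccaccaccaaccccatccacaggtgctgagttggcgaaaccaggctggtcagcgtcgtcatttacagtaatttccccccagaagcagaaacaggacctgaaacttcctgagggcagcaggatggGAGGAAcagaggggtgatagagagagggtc
C1qc: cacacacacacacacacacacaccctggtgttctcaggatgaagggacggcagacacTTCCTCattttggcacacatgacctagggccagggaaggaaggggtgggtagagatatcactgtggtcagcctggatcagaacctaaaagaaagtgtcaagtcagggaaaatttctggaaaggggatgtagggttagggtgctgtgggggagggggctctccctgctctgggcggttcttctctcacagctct
Fcer1g: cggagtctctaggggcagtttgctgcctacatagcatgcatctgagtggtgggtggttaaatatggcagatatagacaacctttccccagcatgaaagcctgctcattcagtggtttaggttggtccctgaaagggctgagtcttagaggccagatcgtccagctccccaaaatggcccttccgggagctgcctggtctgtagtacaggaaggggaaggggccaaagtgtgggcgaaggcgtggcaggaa
The match in *C1qb* began 30 bases from the start and that in *C1qc* 193 bases from it, whereas *Fcer1g* held none. GAGGAA on either strand was found in 7639 of 32851 such windows (23.3%), so a match is a description of the letters and not a binding site.

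The 6 marker genes were mostly found together. All 6 genes were detected in 207 macrophages, 5 in 9, 4 in 2 and 3 in 13. The lowest sum of the 6 genes in a macrophage was 24 and 23 UMIs in the controls and 19 and 11 UMIs in the *Sox17*-cKO libraries, and the median sum was 76, 194, 84.5 and 147 UMIs. Just outside the limits were 52 retained cells with 6 or more UMIs of these genes, with up to 27, 63, 37 and 66 UMIs by library in the same order, so the sums of members and non-members overlapped. All of those UMIs came from *Tyrobp* and *Fcer1g*, the signalling adaptors that T, natural killer and mast cells share with macrophages. None held a UMI of a C1q gene or of *Csf1r*. A cell with both adaptors would have met the limits with 1 such UMI, so for those cells this absence follows from the rule. In 8 of the 52 *Tyrobp* had no UMI. *Cd3g*, a chain of the T cell receptor complex, was detected in 27 of the 52, the cytotoxic granule gene *Nkg7* in 26 and the mast cell proteases *Cma1*, *Mcpt4*, *Cpa3* and *Tpsb2* in 7. Another cell had 3 of the genes with fewer than 6 UMIs, and 20533 of the 22284 cells below 6 UMIs had none. The upper limit on detected genes left out 30 barcodes that met both marker limits, and the lower limit left out 7.

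The macrophages of a library held 141416, 818444, 332018 and 671909 UMIs in the order control 1, control 2, *Sox17*-cKO 1 and *Sox17*-cKO 2, an order kept below. Their median depth was 5295, 8982, 6272 and 8325 UMIs per cell. A single UMI was therefore worth 7.07 CPM in control 1 and 1.22 CPM in control 2, and low levels in control 1 rest on few molecules. In all, 11 cells (1, 2, 5 and 3 by library) also met the limits of the marker list of another testis class and are called mixed macrophages. Pairs of libraries shared 20 to 43 barcode sequences, none of them carried by a macrophage in both libraries of the pair.

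Macrophages made up 0.407% of the retained cells of control 1 (25 of 6135, 95% Clopper-Pearson interval 0.264 to 0.601%) and 1.57% of those of control 2 (81 of 5174, 1.25 to 1.94%). The share was 0.849% in *Sox17*-cKO 1 (48 of 5652, 0.627 to 1.12%) and 1.37% in *Sox17*-cKO 2 (77 of 5606, 1.09 to 1.71%). The lowest and the highest share were those of the 2 controls, so the genotypes overlapped. The mean was 0.987 ± 0.819% (SD, n = 2) in controls and 1.11 ± 0.371% (SD, n = 2) in *Sox17*-cKO, a difference of 0.12 percentage points (exact permutation test over libraries, two-sided, p = 1.0, smallest possible p = 0.33). The tissue preparation discarded the interstitial supernatant, so these shares describe what remained after that step, not the intact testis. The intervals cover counting error only.

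**Figure D1:**
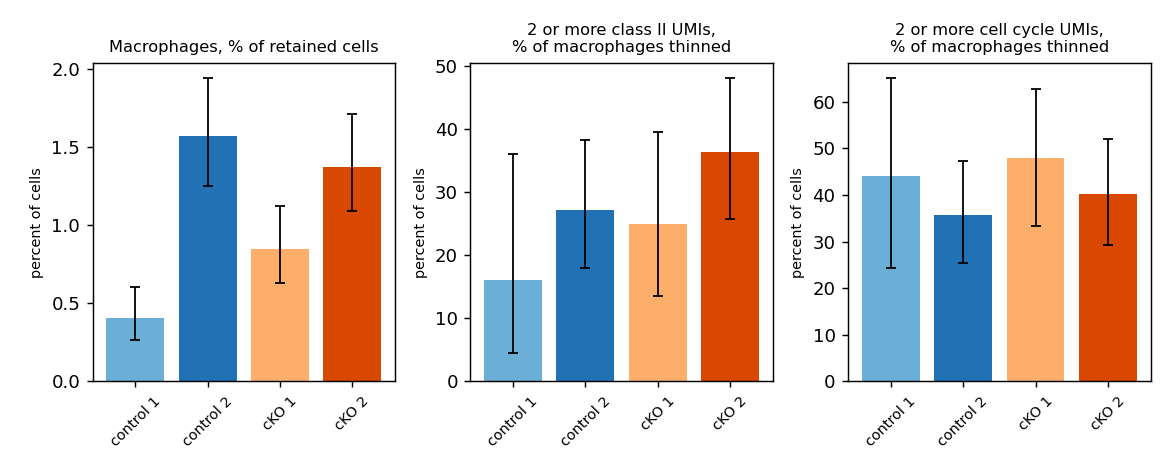
The bars give, for each library, macrophages as a percentage of retained cells (left), and the percentage of macrophages with 2 or more class II MHC UMIs (middle) or cell cycle UMIs (right) after each cell was thinned to 2000 UMIs; error bars are 95% Clopper-Pearson intervals. The macrophage share runs from 0.407% in control 1 to 1.57% in control 2 with both *Sox17*-cKO libraries between them.

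Genes outside the rule showed the same identity. All 20 genes of a macrophage identity list stood higher in the macrophages than in the other retained cells of their own library in 4 of 4 libraries, beside 39.1% of the 2966 genes with 100 or more macrophage UMIs. Because the cells were chosen by correlated genes, this is a description with no test. *Adgre1*, which encodes the F4/80 antigen, stood at 240, 528, 268 and 482 CPM in macrophages and at no more than 0.259 CPM in the other cells. *Cd68*, a protein of lysosomal membranes, stood at 304, 692, 289 and 829 CPM against 1.10, 3.32, 1.02 and 3.71 CPM. *Spi1*, which encodes PU.1, stood at 354, 378, 307 and 423 CPM and was detected in 211 of the 231 cells. These levels were high in every library, without overlap with the remaining cells.

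Receptors for growth factors, chemokines and prey followed. *Csf1r*, one of the genes of the rule, stood at 771, 1057, 632 and 1186 CPM. *Cx3cr1*, the fractalkine receptor, stood at 742, 825, 578 and 958 CPM and was found in 207 cells. *Mrc1*, the mannose receptor, stood at 1393, 1327, 949 and 1179 CPM in 196 cells. Sensors of complement fragments were also present, with *C5ar1* at 141, 302, 172 and 302 CPM and *C3ar1* at 276, 312, 175 and 301 CPM. All 12 Fc receptor and adaptor genes measured were higher than in other cells in every library, beside 39.1% of the 2966 genes compared. Among them was *Fcgr3* at 247, 308, 319 and 286 CPM. *Trem2*, a lipid sensor that signals through TYROBP, stood at 226, 727, 256 and 610 CPM, highest in the 2 more deeply sampled libraries. *Timd4* and *Cd163*, receptors for phosphatidylserine and for haptoglobin-haemoglobin, were found in 24 and 23 cells.

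**Figure D2:**
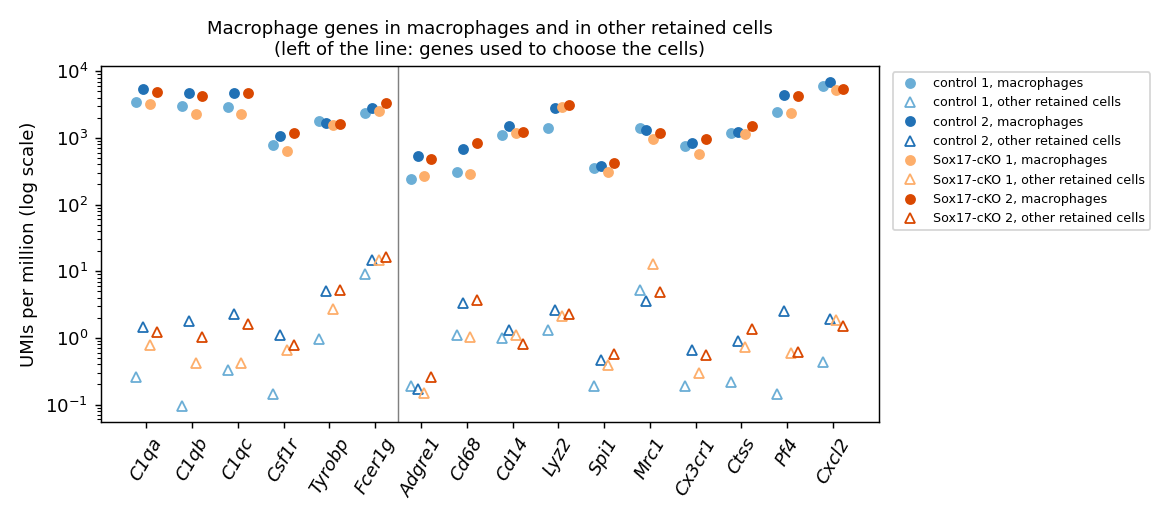
Each point is the summed level of a gene in 1 library, in CPM on a log axis, for macrophages (filled circles) and all other retained cells (open triangles); the 6 genes left of the line chose the cells. In each of the 16 genes the 4 macrophage values lie above the 4 values of the other cells, as for *Adgre1* with 240 to 528 against at most 0.259.

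Secreted factors were among the genes with the highest ratio to other cells. Of the 25 cytokines and chemokines listed, 19 were higher than in other cells in 4 of 4 libraries and 2 were lower. The shares were 39.1% and 33.9% of the 2966 genes with 100 or more macrophage UMIs, a limit that 20 of the 25 reached. *Cxcl2*, a neutrophil attractant, stood at 5897, 6907, 5217 and 5492 CPM, which was 4397-fold above the other cells. *Ccl2*, the ligand of CCR2, stood at 1386, 2391, 1931 and 2176 CPM and *Il1b* at 1704, 2131, 2114 and 2346 CPM. *Pf4*, a heparin-binding chemokine, stood at 2425, 4466, 2352 and 4176 CPM. The levels of *Cxcl2* and *Il1b* varied little between libraries, whereas *Pf4* was lower in control 1 and *Sox17*-cKO 1. *Igf1*, in contrast, was not particular to these cells, since cells meeting a stromal marker list held 1818 CPM and macrophages 378 CPM over all libraries.

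The dissociated state of the cells stands beside these values. Immediate early and heat shock genes are known to be induced by tissue digestion. Of 14 listed, 12 were higher in macrophages than in other cells in 4 of 4 libraries, beside 39.1% of the 2966 genes compared. Their summed level was 20245, 23058, 19565 and 19973 CPM in macrophages and 3603, 9569, 3429 and 7359 CPM elsewhere. *Fos* stood at 3776, 3942, 3918 and 4173 CPM in macrophages. The part of the digestion in the chemokine levels was not tested.

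The 20 genes with the highest ratio to other cells included 6 chemokines besides the C1q genes. *Ms4a7* was 6645-fold higher (676 UMIs against 8), *F13a1*, which encodes a chain of coagulation factor XIII, 5992-fold and *Nlrp3*, an inflammasome sensor, 4475-fold. *Ccl8* had 112 UMIs in 21 macrophages against 1 UMI elsewhere, too few for a fold. *Cd209f*, a lectin, was 5170-fold higher, yet its 263 UMIs came from 12 cells. Of the 2966 genes compared, 305 were over 10-fold and 142 over 100-fold higher in the pooled macrophages.

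Lysosomal and metabolic genes of phagocytes were also higher. The share higher in 4 of 4 libraries was 39.1% over the 2966 genes with 100 or more macrophage UMIs. Of 16 lysosomal genes 13 were higher in 4 of 4 libraries, with *Ctsb* at 955, 2064, 913 and 1945 CPM (13.6-fold). Of 17 iron, lipid and sterol genes 13 were higher, with *Apoe*, the main apolipoprotein of macrophages, at 7100, 14422, 6283 and 14338 CPM (50.4-fold). *Fth1* and *Ftl1*, the ferritin chains, stood at 6732 to 15675 CPM and 4695 to 8546 CPM, and both have processed copies in the genome that can share reads. The summed level of 7 steroid response genes was 233, 312, 313 and 235 CPM against 407, 626, 461 and 642 CPM in other cells. Within that list *Nr3c1*, the glucocorticoid receptor, was higher at 91.9, 122, 111 and 99.7 CPM against 50.2, 84.9, 67.6 and 70.2 CPM.

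Marker lists of lymphocytes, granulocytes and dendritic cells were at or near 0, while those of testis cells and monocytes were not. All 5 natural killer genes had no UMI, and 8 T cell, 6 neutrophil and 6 mast cell genes had 2, 6 and 2 UMIs in all. Of 5 B cell genes only *Cd79b* was present beyond 1 UMI, with 44 UMIs in 38 cells. *Flt3* and the other 6 dendritic cell genes summed to 4.89 to 14.1 CPM. The marker genes of Sertoli, germ and stromal cells were all lower than in the other cells, 6 of 6 in each list in 4 of 4 libraries. The share was 33.9% of the 2966 genes with 100 or more macrophage UMIs. Only 1 Sertoli, 1 germ cell and 4 stromal markers reached that limit, so the 2 sets are not alike. Their summed levels in macrophages were 283, 97.7, 536 and 156 CPM for the Sertoli list and 332, 66.0, 235 and 249 CPM for the germ cell list. The stromal list summed to 148, 428, 2108 and 165 CPM and a smooth muscle list to 56.6, 170, 1039 and 69.9 CPM, and *Sox17*-cKO 1 stood apart because 2 of its cells held 145 and 42 of its 202 *Col1a1* UMIs. A list of 7 monocyte genes summed to 0, 213, 422 and 153 CPM, mostly from *Plac8*, against 20.3, 141, 38.0 and 143 CPM in the other cells.

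The ligands of CSF1R and CX3CR1 were higher in some classes of other cells than in macrophages, though not in all. *Csf1*, a ligand of CSF1R, stood at 35.3, 62.7, 39.5 and 56.7 CPM in 3372 cells that met the stromal marker list and at 6.11 CPM in the pooled macrophages. *Il34*, its second ligand, stood at 51.4, 98.0, 82.8 and 171 CPM in 212 cells meeting a smooth muscle list and at 1.31 CPM in the stromal cells. *Cx3cl1*, the ligand of CX3CR1, stood at 49.9, 43.6, 59.0 and 52.7 CPM in the stromal cells. *Ccl2* had the opposite distribution, with 2167 CPM in the pooled macrophages and 5.94 CPM in the stromal cells. Pooled cells meeting the Sertoli and germ cell lists held *Csf1* at 2.51 and 0.938 CPM, below the 6.11 CPM of macrophages.

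The macrophages were not uniform in C1q. In all, 14 cells had at most 1 C1q UMI, 13 of them none, while the lowest of the other 217 had 7. The controls contributed 0 and 3 of them and the *Sox17*-cKO libraries 5 and 6. They were set apart after their values were seen, so the following is descriptive. By the rule a cell without C1q UMIs had to hold *Csf1r*, *Tyrobp* and *Fcer1g*. The 14 are called macrophages by that rule alone and are counted as such unless left out. Part of them carried genes of blood monocytes. The 14 cells had *Csf1r* at 585 CPM pooled against 1026 CPM in the others, and *Lyz2*, the macrophage lysozyme, at 8030 against 2611 CPM. *Plac8* stood at 4301 against 23.8 CPM and *Thbs1* at 2326 against 36.0 CPM. *Ly6c2*, which marks classical monocytes, had 21 UMIs in 4 of them and 0 in the other 217, and *Hp*, *Ear2*, *Adgre4* and *Treml4*, genes of blood monocytes, had 14, 22, 18 and 10 UMIs and 0 elsewhere. *Pf4*, *Folr2*, *Lyve1*, *Timd4* and *Ms4a7* had no UMI in the 14 cells, and *Mrc1* stood at 90.9 against 1263 CPM. *S100a4* and *S100a6*, small calcium-binding proteins, stood at 2793 against 130 CPM and 2625 against 216 CPM. *H2-Aa* stood at 2547 against 237 CPM but came from 4 of the 14.

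**Figure D3:**
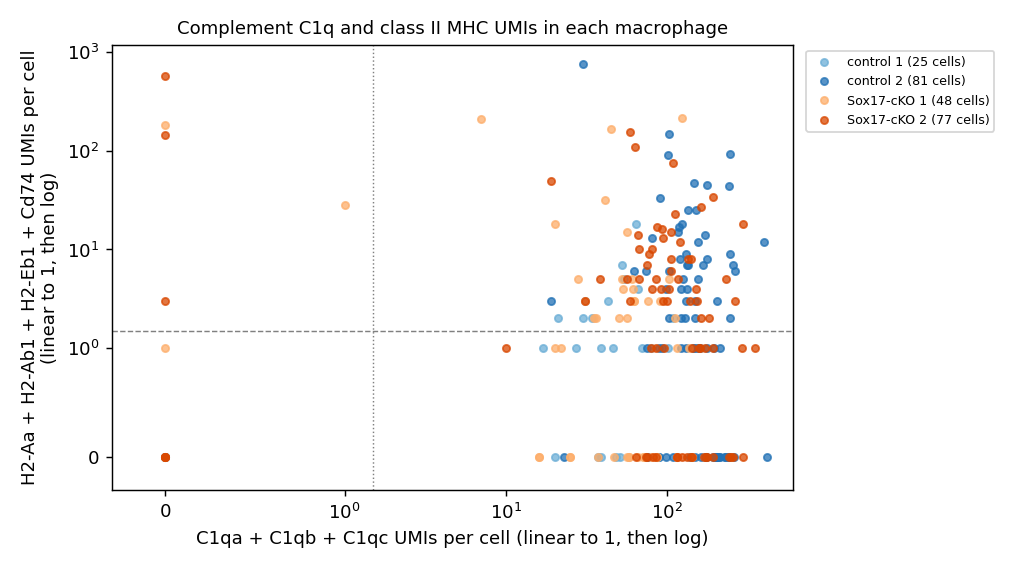
Each point is 1 of the 231 macrophages, placed by its C1q UMIs (x axis) and its UMIs of *H2-Aa*, *H2-Ab1*, *H2-Eb1* and *Cd74* (y axis), both linear up to 1 and logarithmic above; the dotted line marks 1 C1q UMI and the dashed line the limit of 2 class II UMIs. The 14 cells left of the dotted line are separate from the other 217, and class II UMIs run from 0 to 768; points with equal counts overlie each other.

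Class II MHC transcripts were concentrated in few cells. The sum of *H2-Aa*, *H2-Ab1* and *H2-Eb1*, which encode class II chains, and *Cd74*, the invariant chain, was 0 in 75 macrophages, 1 in 35, 2 or 3 in 35 and over 10 in 42. Those 42 held 90.3% of the 4005 UMIs. *Cd74* stood at 311, 1052, 1488 and 1161 CPM and *H2-Aa* at 42.4, 283, 467 and 372 CPM, with control 1 the lowest for both. At least 2 class II UMIs were found in 10 of 25, 43 of 81, 24 of 48 and 44 of 77 macrophages (40.0, 53.1, 50.0 and 57.1%). In cells meeting the stromal list, in which these genes are not expected, the share was 0% (0 of 495, which allows up to 0.606%), 1.35, 0.620 and 0.619% at median depths of 4346, 7126.5, 5514.5 and 5806 UMIs. In cells meeting the germ cell list it was 1.60, 13.9, 3.70 and 15.3%, where *H2-Ab1* stood at 33.1 CPM pooled and *Cd74* at 0.442 CPM.

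Macrophages with 2 or more class II UMIs differed from the rest in many other genes. The split was made on class II transcripts of these same cells, and the values are given with no test. Over the 2966 genes with 100 or more UMIs, 13.3% were higher and 17.3% lower in the class II positive cells of all 4 libraries. The positive cells were not deeper throughout, with median UMIs of 5264.5, 8982, 6530.5 and 7327 against 5295, 9012.5, 5689.5 and 9709.

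Of 17 macrophage identity genes compared, 6 were lower and 2 higher in the positive cells of 4 of 4 libraries, and of 11 uptake receptors 4 were lower and 1 higher. Over all genes compared, 17.3% were lower and 13.3% higher, which also stands beside the lists below. *Mrc1* stood at 1889, 1840, 1292 and 1840 CPM in cells with 0 or 1 class II UMI and at 641, 841, 622 and 589 CPM in the positive cells. *F13a1* stood at 1067, 1523, 791 and 1288 CPM against 0, 410, 211 and 231 CPM. *Folr2*, a folate receptor, stood at 199, 407, 192 and 230 CPM against 0, 114, 47.0 and 14.1 CPM. In each of these genes the 4 values of positive cells lay below the 4 values of the others. *Lyve1*, a hyaluronan receptor, stood at 422, 279, 161 and 123 CPM against 0, 138, 11.7 and 8.45 CPM, and *Igf1* at 305, 637, 322 and 757 CPM against 196, 217, 117 and 138 CPM. Of 15 lysosomal genes compared 11 were lower in 4 of 4 libraries and 1 was higher, and of 12 iron, lipid and sterol genes 8 were lower. *Apoe* stood at 9994, 18210, 7920 and 21528 CPM against 2706, 10829, 4727 and 7921 CPM. All 5 interferon response genes compared and 8 of 11 Fc receptor and adaptor genes were lower as well.

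Of 20 cytokines and chemokines compared, 4 were higher in the positive cells of 4 of 4 libraries (*Il1a*, *Il1b*, *Ccl4* and *Cxcl2*) and 4 were lower (*Pf4*, *Igf1*, *Il18* and *Tgfb1*). Over all genes compared 13.3% were higher and 17.3% lower, so these cytokine counts lay near the share of all genes. Of 15 cytokine and chemokine receptors compared, 2 were higher and 2 lower. *Ccr2*, the receptor of monocytes for CCL2, stood at 82.1, 45.2, 142 and 9.47 CPM in cells with 0 or 1 class II UMI and at 196, 186, 270 and 335 CPM in the positive cells. Other monocyte genes differed in direction. *Plac8* had 370 UMIs in cells with 0 or 1 class II UMI and 6 in the positive cells, *Ly6c2* 21 and 0, *Hp* 13 and 1, and *Vcan* 1 and 4. *Il1b* stood at 1572, 1242, 1286 and 1086 CPM against 1905, 2974, 2901 and 3470 CPM, without overlap between the 2 sets. *Cxcl2* stood at 4575, 5243, 4124 and 3777 CPM against 7905, 8486, 6254 and 7022 CPM. *Cd14*, the endotoxin co-receptor, was 936, 711 and 757 against 2010, 1644 and 1600 CPM in 3 libraries, but 1103 against 1104 CPM in control 1. Of 9 cell cycle genes compared, 4 were higher in 4 of 4 libraries and none was lower. Among the 4 was *Birc5*, a mitotic survivin, at 93.8, 77.8, 117 and 34.7 against 231, 195, 188 and 251 CPM. The C1q genes differed less, with *C1qa* at 3695, 5165, 3462 and 5071 against 3133, 5657, 3089 and 4642 CPM. *C1qa* and *C1qb* were lower in the positive cells of 3 libraries. *C1qc* was lower in 4 of 4, at 2909, 4977, 2523 and 5207 against 2795, 4495, 2061 and 4118 CPM, and so was *Csf1r*.

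**Figure D4:**
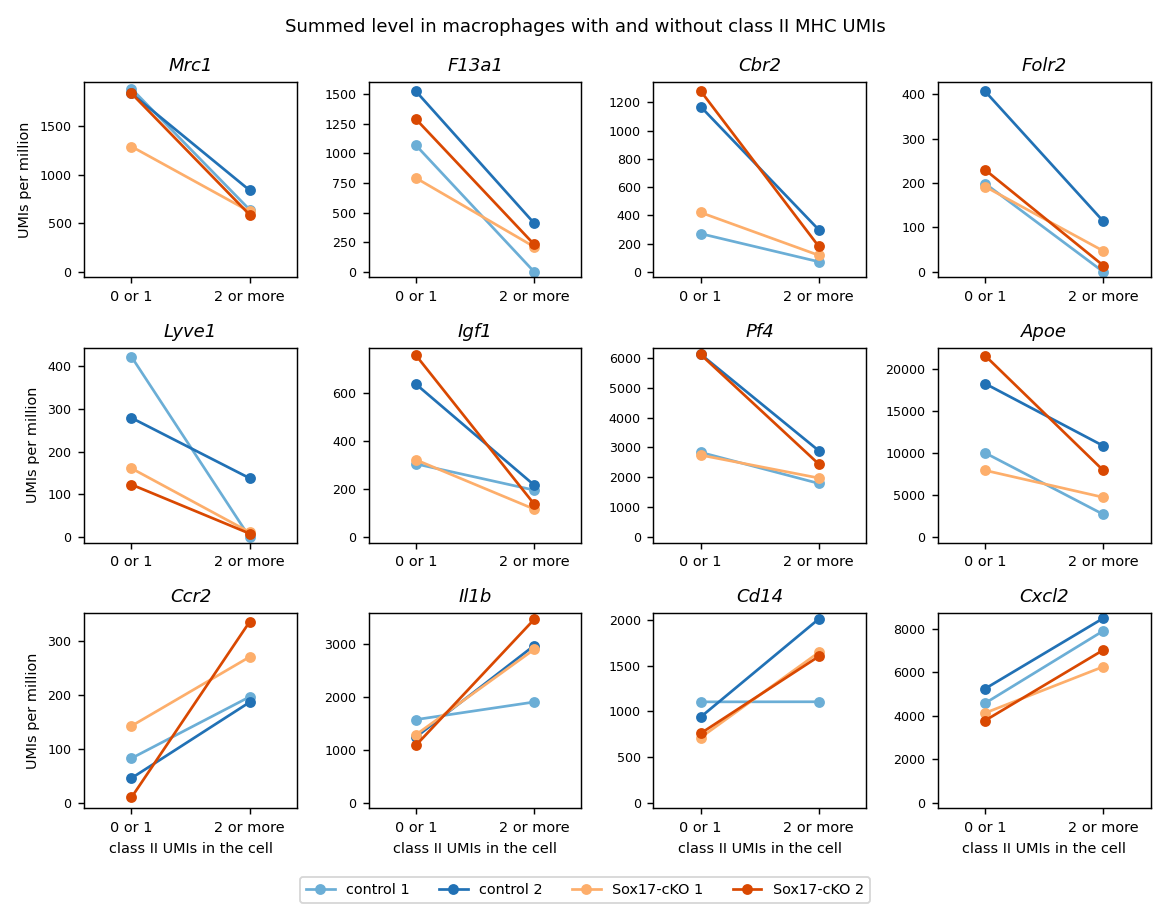
Each line joins, for 1 library, the summed level of a gene in CPM (linear axes) in macrophages with 0 or 1 class II UMI to that in macrophages with 2 or more. The first 8 genes fall in every library, such as *Mrc1* from 1292 to 1889 down to 589 to 841; *Ccr2*, *Il1b* and *Cxcl2* rise in every library, and *Cd14* is flat in control 1.

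The same gradient was present cell by cell among the 217 macrophages with more than 1 C1q UMI. Spearman's rho between the depth-scaled levels of class II MHC and *Mrc1* was −0.43, −0.53, −0.27 and −0.63 over the 25, 78, 43 and 71 cells of the libraries. For *Ccr2* it was 0.44, 0.43, 0.29 and 0.54. *Cx3cr1* gave no common sign, with 0.16, −0.16, −0.07 and −0.16. Cells of 1 library share its depth and its free RNA, and no p-value is given.

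Among cells thinned to 2000 UMIs, a depth that all 231 reached, 2 or more class II UMIs were found in 16.0% (95% interval 4.54 to 36.1%) and 27.2% (17.9 to 38.2%) of control macrophages. The shares were 25.0% (13.6 to 39.6%) and 36.4% (25.7 to 48.1%) in *Sox17*-cKO. Control 2 lay above *Sox17*-cKO 1, so the genotypes overlapped, and the means of 21.6 ± 7.89% and 30.7 ± 8.04% (SD, n = 2 each) differed by 9.10 percentage points (exact permutation test, two-sided, p = 0.667, smallest possible p = 0.33). The share of stromal cells after thinning was 0 (0 of 490, which allows up to 0.612%), 0.0796, 0.420 and 0.266%. The sign of the difference turned with a limit of 1 UMI in place of 2, to −3.53 points.

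Part of the macrophages carried proliferation transcripts. *Mki67*, a protein of dividing nuclei, stood at 148, 155, 271 and 180 CPM in 80 cells. The summed level of 14 cell cycle genes was 1252, 1210, 1575 and 1387 CPM in macrophages. All other retained cells held 1727, 1038, 1892 and 1060 CPM, so macrophages were lower in control 1 and *Sox17*-cKO 1. After thinning, 2 or more UMIs over 14 cell cycle genes were found in 44.0% (24.4 to 65.1%) and 35.8% (25.4 to 47.2%) of control macrophages and in 47.9% (33.3 to 62.8%) and 40.3% (29.2 to 52.1%) of *Sox17*-cKO macrophages. The same measure gave 18.9, 10.3, 24.9 and 13.8% in Sertoli cells, which have largely left the cell cycle at this age, with median depths of 6106.5, 4852.5, 4276 and 6456.5 UMIs before thinning. The macrophage share was above that of Sertoli cells in each library. Without thinning it was 76.0, 75.3, 75.0 and 66.2% against 58.2, 41.4, 60.7 and 52.8% in Sertoli cells. Genotype means of 39.9 ± 5.80% and 44.1 ± 5.41% (SD, n = 2 each) differed by 4.19 points (exact permutation test, two-sided, p = 0.667), and by −5.04 points without thinning.

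The deletion of *Sox17* was compared with the control by summing the UMIs of all macrophages per library. None of 6251 genes tested passed an adjusted p of 0.05 with edgeR's quasi-likelihood test (0%), 87 had an unadjusted p below 0.05, and DESeq2 called none of 14390 genes with 20 below 0.05. The 2 *Sox17*-cKO libraries both lay above both controls for 14.2% of the genes and below both for 11.0%. The individual animals were pooled within a library, so n = 2 counts libraries. On counts simulated from these libraries, the edgeR test called 4 of 100 genes changed 2-fold and 59 of 100 changed 4-fold. The 0 calls therefore do not show that no gene changed.

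The 6 marker genes chose the cells, so their levels are given with no test. *C1qa* stood at 3472 and 5418 CPM in controls and at 3271 and 4844 CPM in *Sox17*-cKO, and *Tyrobp* at 1789 and 1681 against 1554 and 1625 CPM.

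Several tissue macrophage genes had lower values in *Sox17*-cKO, none past the test. Of 20 identity genes, 8 were below both controls in both *Sox17*-cKO libraries and 1 was above, beside 11.0% and 14.2% of all genes tested. Their median log2 fold change was −0.13 against 0.01 over all genes tested. *Lyve1* stood at 255 and 206 CPM in controls and at 84.3 and 62.5 CPM in *Sox17*-cKO, a log2 fold change of −1.69 (SE 0.372, unadjusted p = 9.30e-04, edgeR adjusted p = 1.0). Its UMIs came from 34 cells, 5 and 16 in controls and 5 and 8 in *Sox17*-cKO. *Fcna*, a ficolin of the lectin complement pathway, stood at 56.6 and 70.9 CPM against 9.04 and 19.3 CPM (−2.11, SE 0.471). *Cd163* stood at 28.3 and 52.5 against 15.1 and 19.3 CPM (−1.37, SE 0.509) and *Timd4* at 28.3 and 29.3 against 9.04 and 13.4 CPM (−1.32, SE 0.631), with no more than 43 UMIs in a library for either gene. *Mrc1* stood at 1393 and 1327 against 949 and 1179 CPM (−0.39, SE 0.337). *Lyz2* was the identity gene above both controls, at 1428 and 2777 against 2934 and 3118 CPM (0.49, SE 0.385). The 14 cells with at most 1 C1q UMI held no *Lyve1*, *Cd163* or *Timd4* UMI. In them *Mrc1* stood at 90.9 against 1263 CPM and *Lyz2* at 8030 against 2611 CPM. The controls held 0 and 3 of them and the *Sox17*-cKO libraries 5 and 6. Over 13 settings, 1 of them without these cells, *Lyve1* ran from −1.89 to −1.49 and *Mrc1* from −0.59 to −0.25. The count of 8 was not repeated without them.

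Other genes with lower values included secreted and signalling factors. *Spp1*, which encodes osteopontin, stood at 771 and 505 CPM in controls and at 48.2 and 293 CPM in *Sox17*-cKO (−1.88, SE 0.628). Single cells dominated its level, with 89 of 109 UMIs in 1 cell of control 1 and 111 of 197 in 1 cell of *Sox17*-cKO 2. *Clec10a*, a galactose lectin, stood at 77.8 and 115 against 57.2 and 58.0 CPM (−0.84, SE 0.372), and *Blnk*, an adaptor, at 77.8 and 72.1 against 24.1 and 34.2 CPM (−1.32, SE 0.399). Of 14 uptake receptors tested, 5 were below both controls and 1 above, beside 11.0% and 14.2% of all genes tested. *Cmah*, *Hilpda*, *Adamts5*, *Bcl2a1d*, *Cp* and *Naa60* were also below both controls, with log2 fold changes from −1.21 to −1.91. None passed the test.

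Genes with higher values were led by *Slc7a11* and by calcium-binding S100 proteins. *Slc7a11*, the cystine transporter, stood at 0 and 8.55 CPM in controls and at 51.2 and 34.2 CPM in *Sox17*-cKO, on 0, 7, 17 and 23 UMIs. *S100a6* stood at 21.2 and 175 CPM in controls and at 681 and 353 CPM in *Sox17*-cKO (2.13, SE 0.609, unadjusted p = 0.00529, edgeR adjusted p = 1.0). *S100a4* stood at 14.1 and 131 against 262 and 394 CPM (1.88, SE 0.575), and *S100a11* at 177 and 221 against 491 and 415 CPM (1.12, SE 0.338). In mm10 *S100a4* and *S100a6* lie close together on chromosome 3, at 90603771 to 90606045 and 90612882 to 90624181. Control 1 held 2 *S100a4* and 3 *S100a6* UMIs. *S100a4* and *S100a6* were also high in the 14 cells without C1q, of which 5 and 6 were in the *Sox17*-cKO libraries, and without those cells the changes were 1.64 and 2.04.

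Some class II, cell cycle and stress genes lay above or below both controls, none with a call in the main test. Over all genes tested, 14.2% lay above both controls and 11.0% below both. *H2-Aa* stood at 42.4 and 283 CPM in controls and at 467 and 372 CPM in *Sox17*-cKO (1.17, SE 0.564), and 4 of 8 class II genes tested were above both controls and 1 below. Without the 14 cells its change was 0.50, and without control 2 it was 3.22 with an edgeR adjusted p of 0.00622, so the value depends on control 1 with 6 *H2-Aa* UMIs. Of 14 cell cycle genes, 6 were above both controls and 1 below, among them *Top2a*, a mitotic topoisomerase, at 212 and 182 against 340 and 295 CPM (0.66, SE 0.337). *Mcm2*, a replication helicase subunit, was the one below, at 77.8 and 66.0 against 24.1 and 37.2 CPM (−1.16, SE 0.409). Of 14 immediate early and heat shock genes, 6 were below both controls and 1 above, such as *Junb* at 2708 and 3122 against 2355 and 1947 CPM. *Cxcl10*, an interferon-induced chemokine, stood at 233 and 269 against 343 and 583 CPM (0.84, SE 0.371).

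Transcripts of other testis cells also differed in the same comparison, those of stroma through *Sox17*-cKO 1. *Inha*, a Sertoli cell gene, stood at 21.2 and 17.1 CPM in control macrophages and at 75.3 and 43.2 CPM in those of *Sox17*-cKO, and *Sparc*, a matrix gene, at 113 and 149 against 837 and 176 CPM. The 5 stromal markers tested had a median log2 fold change of 1.38, the 5 Sertoli markers 0.95 and the 5 germ cell markers 0.88, beside 0.01 over all genes. Only *Inha* among the Sertoli markers and none of the stromal or germ cell markers was without overlap. All 5 stromal markers were above both controls in *Sox17*-cKO 1 and below control 2 in *Sox17*-cKO 2. *Col1a1* stood at 14.1 and 152 against 608 and 71.4 CPM. In *Sox17*-cKO 1, 2 cells held 187 of its 202 UMIs. The part of these transcripts in the other changes was not tested beyond leaving out the 11 mixed macrophages, after which *Lyve1* gave −1.55 and *S100a6* 2.15.

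**Figure D5:**
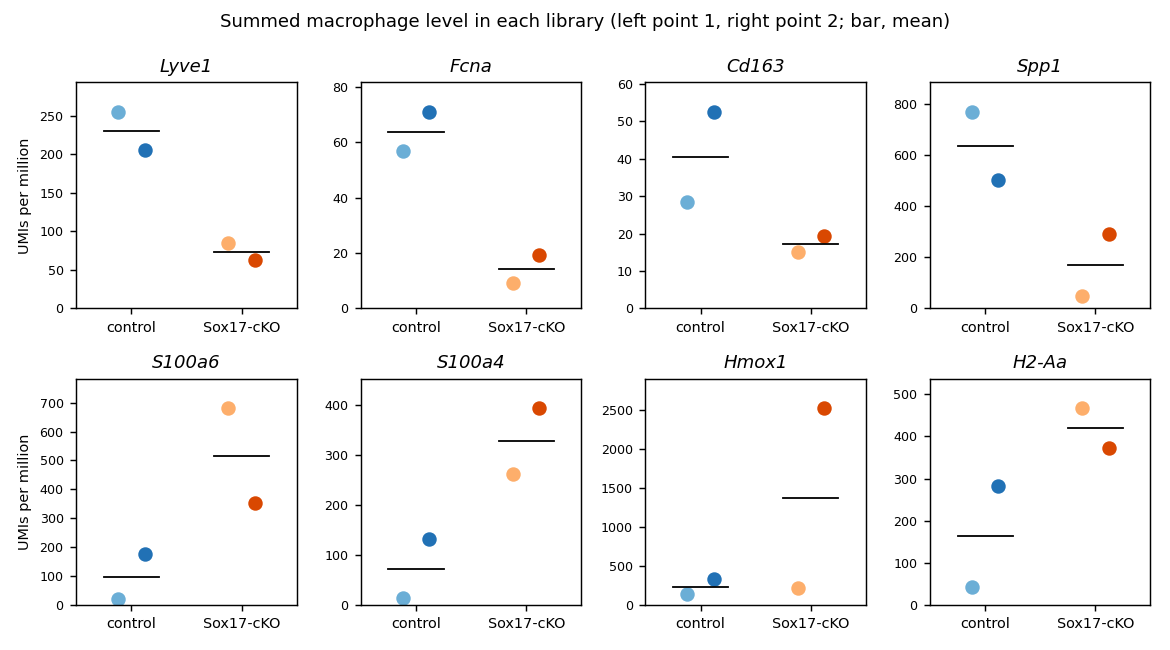
Points give the summed macrophage level in CPM for each library (control left, *Sox17*-cKO right; linear axes from 0) and bars the mean of 2 libraries. *Lyve1*, *Fcna*, *Cd163* and *Spp1* lie lower and *S100a6*, *S100a4* and *H2-Aa* higher in both *Sox17*-cKO libraries, while *Hmox1* is high in *Sox17*-cKO 2 alone (2526); no gene passed the test.

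A single library decided the values of heme and iron genes. *Hmox1*, which encodes the heme-degrading oxygenase, stood at 134 and 335 CPM in controls and at 220 and 2526 CPM in *Sox17*-cKO. In *Sox17*-cKO 2, 8 of the 77 macrophages held 1543 of its 1697 *Hmox1* UMIs, the highest 406 and 272, and the other 69 stood at 271 CPM. In those 8 cells *Slc40a1*, the iron exporter ferroportin, stood at 2076 CPM against 96.7 CPM in the remaining 69, and *Fth1* at 38385 against 11559 CPM. In the other libraries 2 cells of control 2 and 1 of *Sox17*-cKO 1 had 20 or more *Hmox1* UMIs. The log2 fold change of *Hmox1* was 2.46 (SE 0.856) with all libraries and −0.24 without *Sox17*-cKO 2. *Il10* and *Gpnmb* were similarly uneven, with 52 of 62 *Il10* UMIs in 6 cells of control 2 and 48 of 56 *Gpnmb* UMIs in 1 cell of *Sox17*-cKO 2.

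Whether a change differed between macrophages and the other retained cells was tested with a genotype by class term in edgeR and a library block. Of 16022 genes 11 passed an adjusted p of 0.05 (0.0687%), 9 higher and 2 lower in macrophages, and 307 had an unadjusted p below 0.05. This fit uses 1 estimate of the spread per gene for both sums, although the macrophage sums hold far fewer cells. That estimate rests largely on a spread shared across genes, so its p-values look firmer than 2 libraries per genotype allow. *S100a6* was 681 and 353 CPM in *Sox17*-cKO macrophages against 21.2 and 175 CPM in controls, while the other cells stood at 137 and 229 against 147 and 308 CPM, a difference of log2 changes of 2.82 (SE 0.445, adjusted p = 3.46e-06). *Spp1* had a difference of −2.35 (SE 0.433, adjusted p = 2.91e-04), with 64.5 and 40.8 against 72.3 and 24.1 CPM in the other cells. *S100a4* had 2.21 (SE 0.482, adjusted p = 0.0126), with 4.20 and 14.4 against 1.24 and 15.4 CPM in the other cells. These 3 genes kept an adjusted p below 0.05 without the mixed macrophages, at 8.48e-07, 6.97e-05 and 0.00272. None of the 3 did so without *Sox17*-cKO 1, at 0.241, 1.0 and 0.752. Without control 2, *Spp1* and *S100a4* also missed it, at 0.312 and 1.0. Set against the stromal cells alone, *S100a6* and *S100a4* passed, at 8.77e-05 and 0.00215, and *Spp1* did not, at 0.191. The genotype by class term was not fitted without the 14 macrophages with at most 1 C1q UMI. Those 14 held 215 *S100a4* and 202 *S100a6* UMIs, and the other 217 macrophages held 246 and 407. The controls contributed 0 and 3 of the 14 and the *Sox17*-cKO libraries 5 and 6.

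*Hmox1* and *Ccl4* were called as well. *Hmox1* had a difference of 1.97 (adjusted p = 0.0209), which was 0.52 without *Sox17*-cKO 2 and 1.24 without control 1. *Ccl4*, a chemokine, had −2.30 (adjusted p = 0.00297), yet its macrophage level of 3062 and 2317 against 1916 and 2548 CPM overlapped and the other cells of control 1 stood at 0.215 CPM on few UMIs, and the difference was −0.59 without control 1 and −0.63 against the stromal cells alone, neither past the threshold. The remaining 6 calls were *Postn*, *Itih5*, *Tagln*, *Col6a3*, *Insl3* and *Elavl2*, genes of stroma, muscle, Leydig and germ cells. In *Sox17*-cKO 1 the 5 mixed cells held 34 of 34 *Postn*, 29 of 29 *Itih5*, 167 of 169 *Tagln*, 24 of 25 *Col6a3* and 15 of 15 *Insl3* UMIs. None of these 6 passed without the mixed macrophages, and *Itih5* and *Tagln* then changed sign.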

How the data were processed

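Libraries were prepared with a 10x Genomics 3′ kit, targeting 5000 cells each (v3 per the labels, v3.1 in the study's methods). The deposited values are whole-number UMI counts per gene and barcode, which the authors made with Cell Ranger 6.0.2 (control 1, *Sox17*-cKO 1) or 6.1.2 (control 2, *Sox17*-cKO 2) on mm10. Barcodes with 1000 to 4500 detected genes were retained. The study's 1% limit on mitochondrial UMIs was not applied, since it would have left 212 of 22567 cells. No doublet caller was run. Members and gene lists were chosen with earlier results of these data known. Named genes were those of the rule and the lists, and the 20 with the highest ratio to other cells. The 10 with the smallest p in each direction among genes whose libraries did not overlap were added. Genes called in a test were named too. *Thbs1*, *Ear2*, *Adgre4*, *Treml4* and, in a figure, *Cbr2* were chosen after their values were seen. *Il34* and *Cx3cl1* were named as ligands, outside these rules.

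UMI counts were summed per library and tested with edgeR 4.0.16 (quasi-likelihood, TMM, filterByExpr, Benjamini-Hochberg), with DESeq2 1.42.0 as an alternative, in R 4.3.3. The scripts were tested on simulated data. CPM is UMIs per 1000000 of the cells' own UMIs and is not scaled by gene length. Shares were compared by exact permutation over libraries, those of class II and cell cycle after thinning to 2000 UMIs. Reference cells of a class had at least 4 of 6 listed markers with at least 10 UMIs. Of 31053 gene IDs, 99.9% were found in GENCODE vM21. Nothing in the labels separates the 2 libraries of a genotype beyond their number. The p-values of the permutation and genotype tests therefore measure the spread between pooled libraries, for which edgeR also draws on other genes. Those of the genotype by class term rest largely on a spread shared across genes. Results for 3 genes are not reported here.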

Additional observations from a re-analysis of the deposited data

Results flagged for a closer look

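For 11 genes the genotype change in macrophages differed from that in the other retained cells by edgeR's test of the difference, given as log2 differences with *Sox17*-cKO over control positive. The values were 2.82 for *S100a6*, 2.21 for *S100a4*, 1.97 for *Hmox1*, −2.35 for *Spp1* and −2.30 for *Ccl4*. They were 5.41 for *Postn*, 3.11 for *Itih5*, 2.84 for *Col6a3* and 2.52 for *Tagln*, whose UMIs in *Sox17*-cKO 1 lay almost wholly in 5 mixed cells. *Elavl2* had 16 UMIs and *Insl3* 15 UMIs in macrophages of *Sox17*-cKO and none in those of controls, so no difference is given. The differences were not fitted without the 14 macrophages with at most 1 C1q UMI, in which *S100a4* and *S100a6* were high.

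Above the upper limit of 4500 detected genes, 30 barcodes met both marker limits (1, 10, 8 and 11 by library) and entered no comparison except the one that lifted that limit.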

How the results depend on the processing

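The count of 0 genes changed in macrophages became 10 with no filter on low counts, among them *Hmox1*, *S100a6*, *S100a4* and *Spp1*, and ran from 0 to 13 when 1 library was left out; the 13 came without control 2, which left control 1 with 25 cells as the lone control, assumed to vary like the *Sox17*-cKO libraries. It stayed 0 with DESeq2, RLE normalization, stricter membership, a 10% mitochondrial limit, and without mixed or C1q-poor macrophages, the last chosen after seeing the data. The 11 differences from other cells became 5 without mixed macrophages, and 4 to 98 without 1 library, 98 without *Sox17*-cKO 2. Against stromal cells alone 9 genes were called, not all of them among the 11. *Postn*, *S100a4*, *S100a6*, *Insl3* and *Hmox1* kept their call. *Spp1*, *Ccl4*, *Itih5*, *Tagln*, *Col6a3* and *Elavl2* lost it, and *Hilpda*, *Sparc*, *Ccl2* and *Hist1h1b* were called in this setting but not in the main one. The cause was not tested.

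Share differences moved from −0.45 to 0.70 points for macrophages, from 3.42 to 14.8 for class II and from 0.09 to 8.29 for cell cycle with 1 library left out; class II gave −3.53 with a limit of 1 UMI and cell cycle −5.04 unthinned. *Hmox1* ran from −0.24 to 3.32 and *Slc40a1* from −1.09 to 2.08 over the left-out libraries. For differences from other cells these ranges were −0.73 to 11.69 for *Col6a3*, −1.82 to 5.34 for *Itih5* and −1.44 to 13.79 for *Tagln*. Without mixed macrophages *Itih5* gave −7.41 and *Tagln* −1.34. Over single genes and settings, 449 values kept their direction and side of the threshold, 30 lost the call, 13 gained it and 7 turned.

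Libraries share only a number across genotypes, which the labels tie to no litter or day, and the number coincides with the Cell Ranger version. Deviations of same-numbered libraries had r = 0.357 over 6251 genes with only 2 pairs. With the replicate block 0 genes were called and 219 had p below 0.05, against 87 without it. A UMI was worth 7.07 CPM in control 1 and 1.22 CPM in control 2.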
